A study of Brassica napus with 12 samples.

Results

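The 200 genes described here are those with the strongest common increase of RNA level in leaves of both Brassica napus (oilseed rape) cultivars studied, Zhongshuang 9 and Avatar, after 24 h under water. They were chosen from 101040 coding sequences by their TPM values. TPM is a read abundance per effective transcript length that sums to the same total in every library, so TPM levels of different genes can be compared. For each cultivar the difference between the mean log2(TPM + 1) of its 3 submergence libraries and that of its 3 air libraries was taken. A gene had to average at most 400 TPM over the 12 libraries, and in each cultivar every submergence value had to lie above every air value. The 200 genes with the largest smaller-of-the-two differences were kept. Because these values chose the genes, their difference between submergence and air is given below as a description with no test.

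Leaf samples (the first true leaf, at an age of 16 days) came from 4 groups of 3 libraries each: Zhongshuang 9 submerged, Zhongshuang 9 in air, Avatar submerged and Avatar in air. All plants germinated for 24 h at 30 °C in darkness and then grew in soil and sand at about 23 °C with 8 h of light a day. Submerged plants stood fully under tap water for 24 h from day 15, starting 2 h into the light period, and air plants stood in like boxes without water. Replicates are numbered 1, 3 and 4 in each group, and nothing states whether a library is 1 plant or several, or whether replicates were grown separately, so p-values measure the spread between these samples only.

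Under water, gases move slowly, so a submerged leaf meets a shortage of oxygen in the dark and of carbon dioxide in the light, and the gaseous hormone ethylene is trapped in it. In Arabidopsis thaliana, a relative of oilseed rape, such leaves switch on fermentation enzymes, genes of ethylene signalling and genes for the use of stored carbon, in part through ethylene response factors that oxygen otherwise marks for breakdown. Brassica napus carries an A and a C subgenome, so many genes exist as an A and a C copy. The names of the genes below give the subgenome and chromosome (BnaA05g09830D lies on A05), but not a function. Of the 200 genes, 16 matched a locus of the RefSeq annotation of cultivar Da-Ae and 0 had a symbol there, so no role is given to any of them. Whole leaves were sampled, so more RNA per cell and more cells of a type that holds the RNA cannot be told apart.

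Library totals lay between 24389813 and 35873196 estimated counts. Zhongshuang 9 submergence replicate 1 stood apart from its group: its rank correlation across all genes with the other replicates was 0.906 and 0.907, against 0.962 between those. In 5 libraries, an earlier analysis of these files found long chromosome stretches with shifted levels: replicate 1 of submerged Zhongshuang 9, replicate 4 of Zhongshuang 9 in air, replicate 1 of submerged Avatar, and replicates 3 and 4 of Avatar in air. Without these 5 libraries the same rule picked 170 of the 200 genes, and without Zhongshuang 9 submergence replicate 1 alone it picked 189. Around 28 of the 200 genes, expressed neighbours were lowered by a median log2 of at least 0.5 against other libraries of the group. For 15 of the 28 genes this was in an air library. Avatar air replicate 1, outside the 5 libraries, showed it around 5 genes, so leaving out the 5 may not remove every such stretch.

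The 200 genes together were a visible share of the RNA of submerged leaves and a trace of it in air. Their summed level was 2.98%, 3.04% and 2.8% of all TPM in submerged Zhongshuang 9, against 0.124%, 0.0704% and 0.0767% in air. In Avatar it was 1.92%, 1.62% and 1.66% under submergence, against 0.0542%, 0.046% and 0.06% in air. The median gene stood at 76.6, 77.3 and 77.6 TPM in submerged Zhongshuang 9 and at 2.66, 1.40 and 1.37 TPM in air. In Avatar the median was 50.1, 40.2 and 35.5 TPM under submergence and 0.802, 0.782 and 1.08 TPM in air. Between 59 and 64 of the genes were among the 1000 highest of a submerged Zhongshuang 9 library and between 27 and 40 among those of a submerged Avatar library, against 0 in each of the 6 air libraries.

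**Figure D1:**
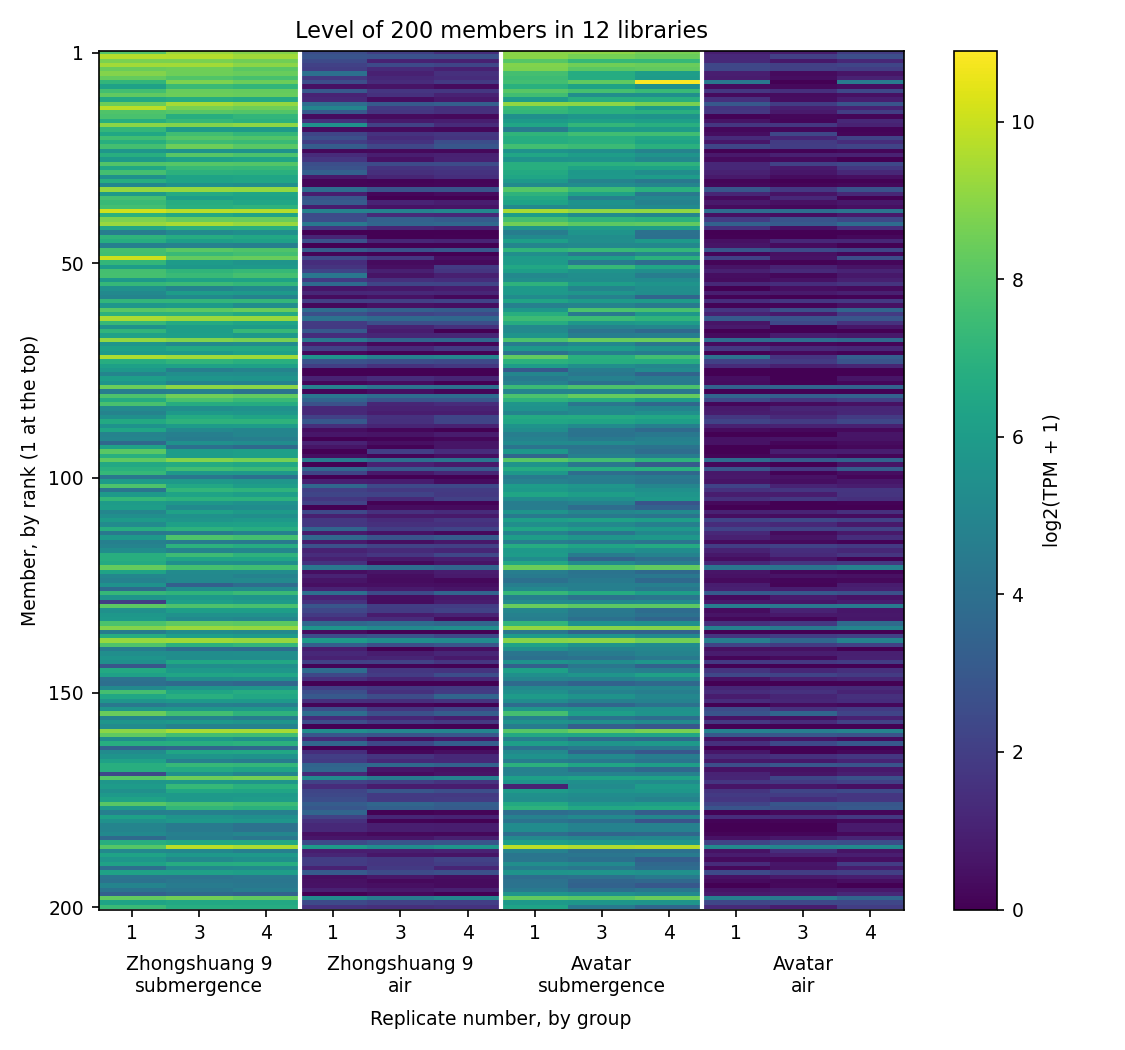
Level of each of the 200 genes, as log2(TPM + 1), in the 12 libraries, with genes ordered by the smaller of their 2 differences and libraries grouped by cultivar and treatment. Submergence columns are lighter than air columns throughout; single dark cells under submergence mark genes low in 1 library, and replicate 1 of Zhongshuang 9 in air is lighter than replicates 3 and 4.

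On the log2(TPM + 1) scale the differences between submergence and air ran from 3.43 to 7.47 in Zhongshuang 9, with a median of 4.6, and from 3.42 to 7.69 in Avatar, with a median of 4.21. The condition on overlap and the cap were met by 15772 of the 101040 sequences (15.6%), whose median differences were 0.82 in Zhongshuang 9 and 0.80 in Avatar. In the edgeR fit over the 55674 genes tested, all 200 genes passed the filter on low counts. The test called 199 of them higher under submergence in Zhongshuang 9, where 22.5% of all genes tested were called higher, and 200 in Avatar, where 21.6% were. It called 0 lower in either, where 22% of all genes tested were lower in Zhongshuang 9 and 18.4% in Avatar. Nothing is read from these counts, since the rule used the same contrast. The 1 gene without a call in Zhongshuang 9, BnaC03g24270D, was at 24.9, 26.2 and 26.3 TPM in submerged Zhongshuang 9 and at 10.6, 0.0479 and 0.098 TPM in air, where replicate 1 alone was high. At the edge of the list, BnaC05g44250D and BnaA05g24230D were the last genes inside, with smaller differences of 3.43 and 3.42, and BnaC08g28500D and BnaA05g27390D the first outside, both with 3.42.

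**Figure D2:**
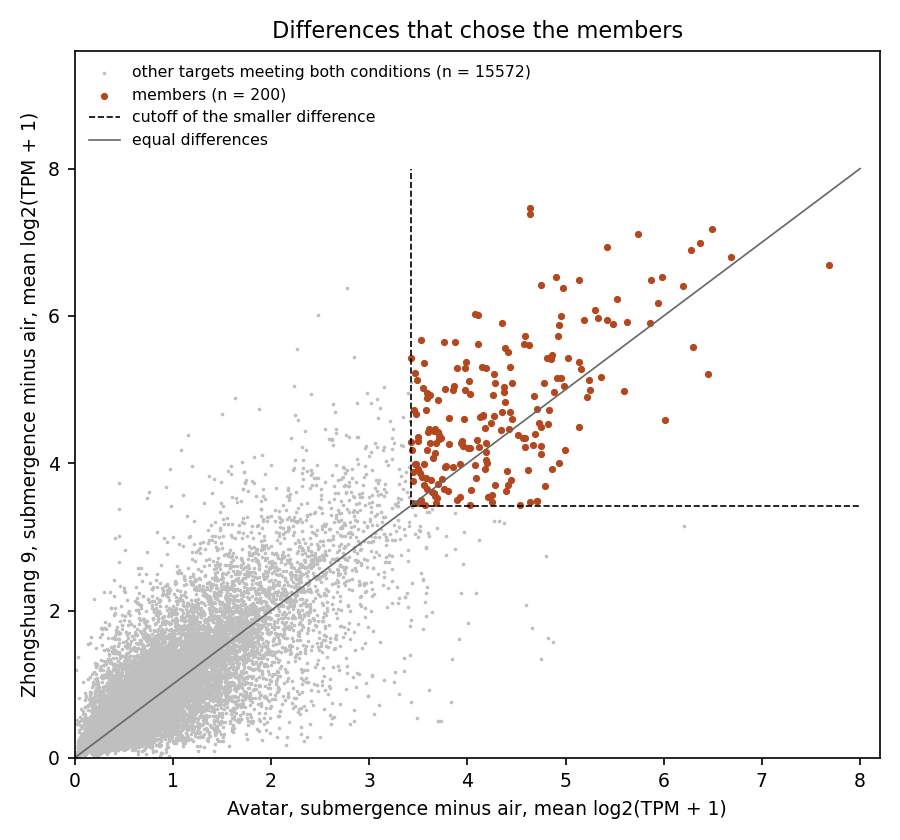
Difference between submergence and air in mean log2(TPM + 1), Avatar on the x axis and Zhongshuang 9 on the y axis, for the 200 genes (red) and the other 15572 sequences that met the same conditions (grey). The dashed lines mark the lowest smaller difference among the 200, 3.42, and more of the 200 lie above the line of equal differences than below it.

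The 6 genes with the largest smaller difference all averaged at least 123 TPM under water in each cultivar and at most 6.01 TPM in air. BnaA05g09830D, a short coding sequence of 324 bases, led the list. It was at 251, 581 and 465 TPM in submerged Zhongshuang 9 and at 4.74, 2.93 and 1.72 TPM in air, and at 503, 516 and 405 TPM in submerged Avatar and 0.862, 0.78 and 2.67 TPM in air. Its lowest submerged value, in Zhongshuang 9 replicate 1, was still far above every air value. BnaA09g27350D was at 831, 809 and 647 TPM in submerged Zhongshuang 9, against 6.02, 5.76 and 5.58 TPM in air. In Avatar it was at 504, 389 and 343 TPM under submergence and 1.40, 3.19 and 5.17 TPM in air, so the cultivars did not overlap in either treatment. BnaC05g21780D has the same coding length as BnaA09g27350D, 357 bases. It was at 518 to 673 TPM in submerged Zhongshuang 9 and 3.36 to 4.40 TPM in air, and at 344 to 454 TPM in submerged Avatar and 3.19 to 3.99 TPM in air, so the cultivars overlapped in air only. Estimated counts of BnaA09g27350D and BnaC05g21780D were not whole numbers in 11 of the 12 libraries, such as 11.93 and 34.07 in Avatar air replicate 1. Reads were divided between sequences, so the levels of these 2 genes one by one, and their overlap between cultivars, are uncertain. The same holds for BnaA03g57280D and BnaA02g20640D, described below, whose counts were not whole in 11 and 12 libraries. For BnaA05g09830D and BnaC06g05990D this was so in 6 and 7 libraries.

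BnaC06g05990D averaged 403 ± 27.8 TPM in submerged Zhongshuang 9 and 2.14 ± 1.97 TPM in air, and 191 ± 57.3 TPM in submerged Avatar and 1.11 ± 0.421 TPM in air (SD, n = 3 each). BnaA03g57280D was the only one of the 6 with a lower mean in Zhongshuang 9 than in Avatar in both treatments: it averaged 324 ± 43 TPM in submerged Zhongshuang 9 against 337 ± 84.8 TPM in submerged Avatar, and 1.82 ± 1.01 TPM in Zhongshuang 9 air against 3.3 ± 0.565 TPM in Avatar air (SD, n = 3 each). The submerged values of the cultivars overlapped. BnaA02g20640D was at 476, 358 and 326 TPM in submerged Zhongshuang 9 and at 15.2, 0.983 and 1.84 TPM in air, where replicate 1 stood far above the others. In Avatar it was at 196, 107 and 66.7 TPM under submergence and at 0.902, 0.233 and 0.554 TPM in air.

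**Figure D3:**
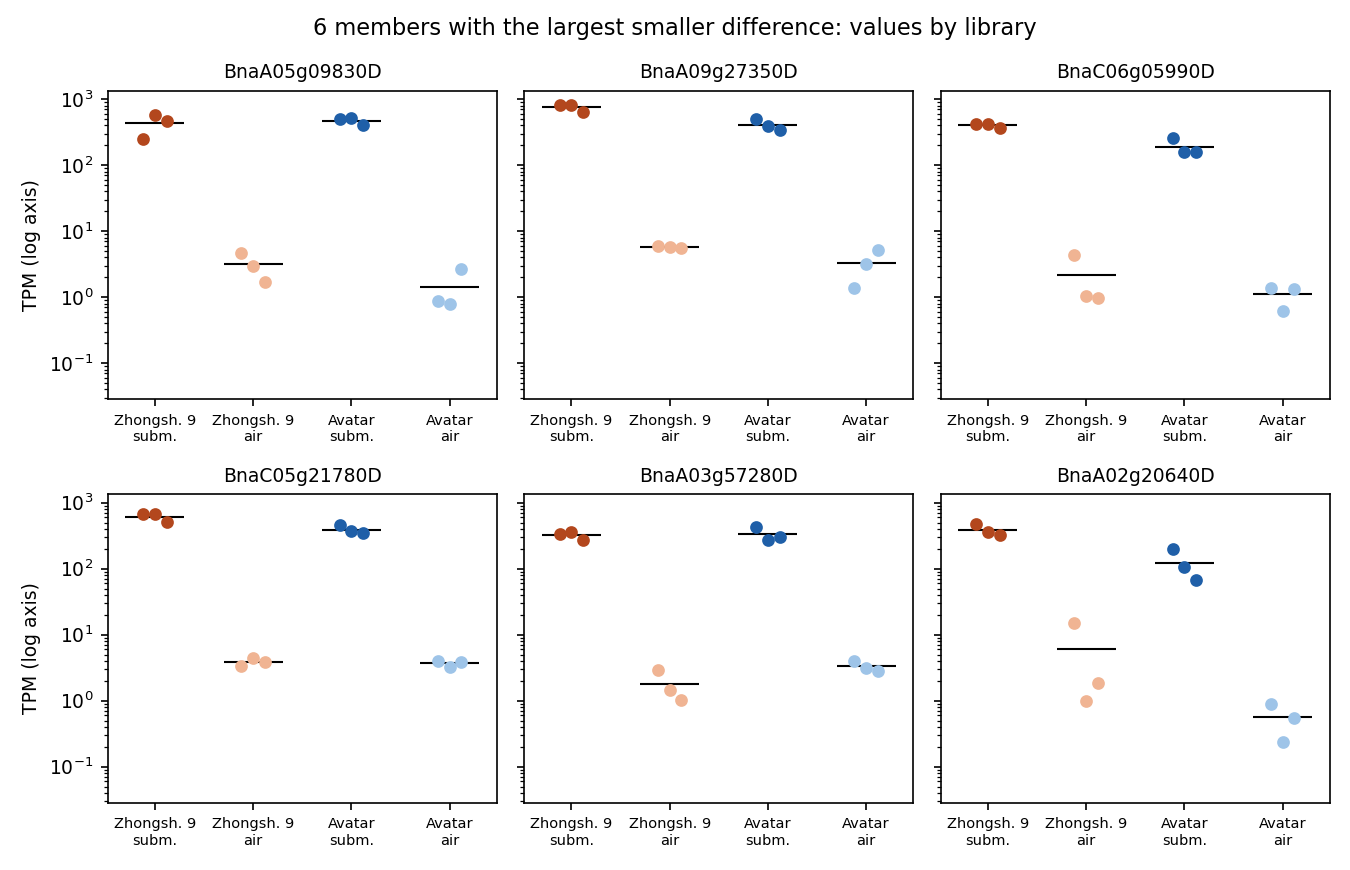
TPM on a log axis of the 6 genes with the largest smaller difference, by group, with a dot for each of 3 libraries and a line at their mean. In each panel all submergence dots lie above all air dots, and BnaA02g20640D in air has 1 Zhongshuang 9 library at 15.2 TPM above the rest.

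The 4 genes highest under submergence stood at several times the median of the 200. BnaC03g39190D was at 1102, 855 and 788 TPM in submerged Zhongshuang 9 and at 28.8, 27.7 and 31.7 TPM in air, and at 718, 551 and 543 TPM in submerged Avatar and 13.6, 14.5 and 17.5 TPM in air. Its values were higher in Zhongshuang 9 than in Avatar in every library of each treatment. BnaC03g30720D was at 867 and 732 TPM in replicates 3 and 4 of submerged Zhongshuang 9 but at 259 TPM in replicate 1, and at 59.6, 38.1 and 49.9 TPM in air. In Avatar it was at 864, 779 and 830 TPM under submergence and 32.6, 28.9 and 35.2 TPM in air, and it had the highest air level of the 200. BnaA03g19470D, the next highest in air, was at 597, 656 and 581 TPM in submerged Zhongshuang 9 and 62.1, 41.8 and 37.7 TPM in air, and at 491, 511 and 377 TPM in submerged Avatar and 24.5, 12 and 28.7 TPM in air. The other two were BnaA09g27350D, described above, and BnaC03g18820D.

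BnaC03g18820D varied widely between Avatar libraries. It was at 192, 298 and 1911 TPM in submerged Avatar, and in air at 19.5 and 22.4 TPM in replicates 1 and 4 but at 0 in replicate 3. The 40 expressed neighbours on its chromosome stood at a median log2 shift of -2.07 in Avatar air replicate 3 against the other Avatar air libraries, and at 1.94 in replicate 1. The value for replicate 1 was taken against libraries that include the lowered replicate 3. The Avatar difference of BnaC03g18820D was 4.45 without Avatar air replicate 3 and 5.94 with it. BnaC03g11050D and BnaC03g13410D, named after their values were seen, lie in a stretch of C03 that was silent in Avatar air replicate 3, with median shifts of -5.35 and -5.43 among their neighbours. Both were at 0 there and at 0.337 to 0.745 TPM in the other Avatar air libraries, and their Avatar differences were 4.27 and 4.52 with the library and 4.10 and 4.28 without it.

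Under submergence the group means ran from 10.6 to 915 TPM in Zhongshuang 9 and from 11.2 to 824 TPM in Avatar, with 85 genes at 100 TPM or more in Zhongshuang 9 and 44 in Avatar. Air levels were low but seldom nil. In air, 65 genes averaged under 1 TPM in Zhongshuang 9 and 101 in Avatar, and 8 genes averaged 20 TPM or more in Zhongshuang 9 and 6 in Avatar. No count was found for 5 genes in any Zhongshuang 9 air library and for 6 in any Avatar air library, and 3 of them, BnaA03g10130D, BnaA04g23760D and BnaA03g16940D, had none in all 6. With 3 counts as the limit that a count of 0 allows in a library, BnaA03g10130D was at least 29.8-fold higher under submergence in Zhongshuang 9, with a bound of 24.4-fold in Avatar. For BnaA04g23760D the bounds were 14.7-fold in Zhongshuang 9 and 12.5-fold in Avatar, and for BnaA03g16940D they were 25.9-fold in Zhongshuang 9 and 41.1-fold in Avatar. These bounds cover counting error only, and the genes of this paragraph were chosen after their values were seen. BnaC04g49440D and BnaC09g18090D had no count in Zhongshuang 9 air alone, and the bounds there were 70.5-fold and 32.4-fold. In Avatar air alone, BnaC09g10140D, BnaC06g28960D and BnaC06g41090D had no count, with bounds of 257-fold, 27-fold and 9.75-fold.

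In Zhongshuang 9 air and in submerged Avatar, the 200 genes tended to be high or low in the same libraries. Replicate 1 of Zhongshuang 9 in air held the highest air value of its group for 148 genes (74%), against 37.7% of all genes with a mean of at least 1 TPM. BnaA07g01850D, for example, was at 510, 467 and 522 TPM in submerged Zhongshuang 9 and, in air, at 43.7 TPM in replicate 1 and at 3.41 and 1.56 TPM in replicates 3 and 4. Replicate 1 of submerged Avatar was the highest of its group for 134 genes (67%), against 52.2% of all genes, and replicate 4 the lowest for 119 (59.5%), against 47.9%. In the other groups no library was highest or lowest for most of the 200 genes. Replicates 1, 3 and 4 were highest for 43%, 40% and 17% in submerged Zhongshuang 9, against 47.1%, 26.6% and 26.3% of all genes. In Avatar air they were highest for 32%, 23% and 45%, against 27%, 38.2% and 34.8%. Avatar air replicate 3 was, however, the lowest of its group for 90 genes (45%), against 26.6% of all genes. Within groups, the median coefficient of variation was 18.8% in submerged Zhongshuang 9 and 37.7% in air, and 23.2% in submerged Avatar and 41% in air. A few genes were low in 1 submerged library. BnaA10g24670D and its neighbour BnaA10g24680D were at 2.90 and 4.26 TPM in Zhongshuang 9 submergence replicate 1 but at 60.7 to 69.7 and 30.0 to 43.4 TPM in the other replicates. The 40 expressed genes around them showed no such drop, with median log2 shifts of 0.138 and 0.18 in that library. BnaC04g12610D was at 1.05 TPM in Avatar submergence replicate 1 and at 37.3 and 62.6 TPM in replicates 3 and 4, with a median shift of 0.0251 around it. What lowered these values was not tested.

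The genes were spread over both subgenomes, with 95 on A and 105 on C. A genes were thus 47.5% of those assigned to A or C, close to the 46.7% among 42210 sequences with a mean of at least 1 TPM. Each of the 19 chromosomes held at least 3 of them. Chromosomes C06 and A10 held the most for their size, 8.72 and 8.15 per 1000 such sequences, and C01 the fewest, 1.69. A and C members had like medians of the Zhongshuang 9 difference, 4.55 and 4.61, and of the Avatar difference, 4.35 and 4.19. Coding sequences were short, with a median of 622.5 bases against 933 bases among sequences with a mean of at least 1 TPM. This depended on the scale of the rule: a list of 200 built on CPM, counts scaled to library size but not divided by length, shared 142 genes with this one and had a median length of 1022 bases. Of the estimated counts of the 200 genes, 65.4% were not whole numbers (tolerance 0.01), against 68.1% for sequences with a mean of at least 1 TPM. Such counts arise where reads fit several sequences and are divided between them, so levels of near-identical copies are uncertain one by one. Counts were whole in all 12 libraries for 15 genes and in none for 40.

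Of the 177 genes placed on a chromosome 12 had another of the 200 within 50 gene numbers, in 6 pairs. Gene numbers mostly step by 10 from one gene to the next. The same count was not made for other sets of genes, so whether 12 of 177 is more than usual was not tested. BnaA03g38880D and BnaA03g38920D, on A03, were at 68.9 to 110 and 205 to 273 TPM in submerged Zhongshuang 9 and at 1.12 to 5.78 and 5.67 to 8.35 TPM in air. In Avatar they were at 40.9 to 69.4 and 141 to 161 TPM under submergence and at 0.413 to 1.32 and 3.82 to 6.56 TPM in air. The adjoining pair BnaC01g40880D and BnaC01g40890D, of 237 and 246 coding bases, lay further apart in level, at 25.4 to 30 and 326 to 430 TPM in submerged Zhongshuang 9 and at 16.9 to 24.1 and 123 to 198 TPM in submerged Avatar. BnaC06g40530D and BnaC06g40570D were at 81.1 to 114 and 58.1 to 74.4 TPM in submerged Zhongshuang 9, and at 9.95 to 38.7 and 23.9 to 48.9 TPM in submerged Avatar, with no overlap between cultivars. BnaA09g06020D and BnaA09g06030D, next to each other on A09, overlapped between cultivars, at 57.0 to 79.2 and 16.7 to 25 TPM in submerged Zhongshuang 9 and 50.6 to 83.4 and 18.5 to 28.8 TPM in submerged Avatar.

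The 200 genes were more often called higher than lower in Zhongshuang 9 relative to Avatar. The rule treats the cultivars alike, but it used the same 12 libraries. The error of the contrast averaged over treatments would be unrelated to that of the differences that chose the genes only if submergence and air values spread equally, and the coefficients of variation above differ. The cultivar contrasts are therefore not independent of the choice of genes, and their counts and p-values describe these genes. In edgeR's quasi-likelihood test (Benjamini-Hochberg adjusted p under 0.05 over all genes tested), 93 of the 200 (46.5%) were higher in Zhongshuang 9, where 13.9% of all genes tested were called higher. Lower were 6 (3%), against 17.7% of all genes tested. The median log2 fold change of the 200 was 0.79, with quartiles of 0.38 and 1.32, against 0.02 over all genes tested, and 177 of them had a positive value. Among the 17678 tested genes at or above the lowest mean of the 200, 6.04 TPM, 17.4% were called higher and 16.3% lower. The 800 genes that followed the 200 in the ranking lay between, with 34.8% called higher and 7.25% lower and a median of 0.50, so the excess was not shown to be particular to the 200. A and C members gave like medians, 0.75 and 0.81, with 43 of 95 and 50 of 105 called higher. Without Zhongshuang 9 air replicate 1 the count was 73 higher and 6 lower with a median of 0.62, and without the 5 libraries with shifted stretches it was 102 higher and 8 lower.

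**Figure D4:**
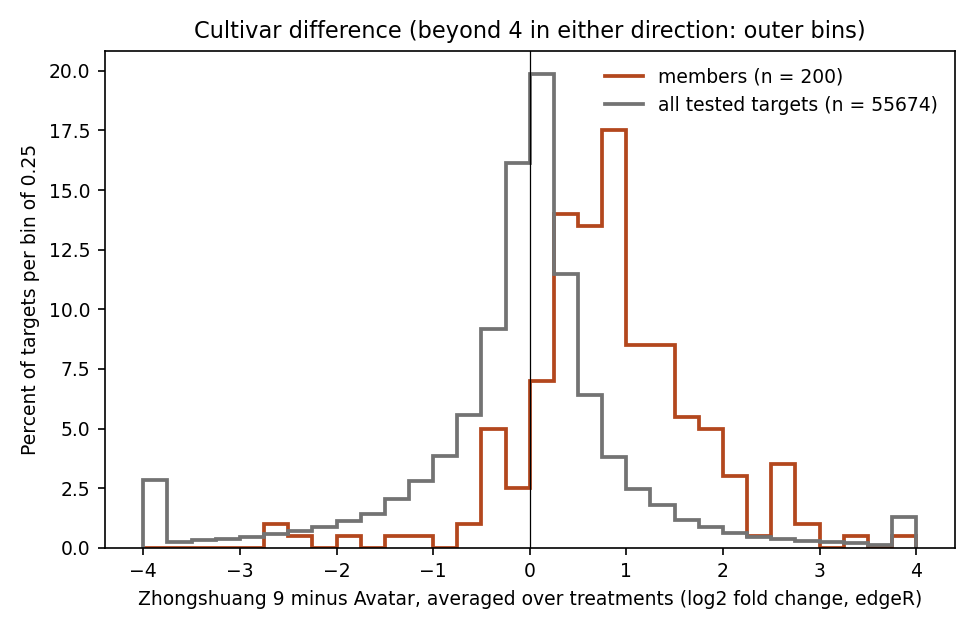
Share of genes per bin of 0.25 in the log2 fold change of Zhongshuang 9 over Avatar, averaged over treatments (edgeR), for the 200 genes (red) and for all 55674 genes tested (grey); values beyond 4 are in the outer bins. The 200 genes centre at 0.79 and all genes tested at 0.02.

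The contrasts within 1 treatment share their libraries directly with the differences that chose the genes, and nothing is read from their counts beside the background. Within submerged leaves alone, 62 of the 200 (31%) were higher in Zhongshuang 9 and 2 lower, against 10.3% and 14.2% of all genes tested, with a median log2 fold change of 0.80. Every submerged Zhongshuang 9 value lay above every submerged Avatar value for 114 genes (57%), and below for 8, against 18.6% and 20.9% of sequences with a mean of at least 1 TPM. In air, 34 (17%) were higher and 5 lower, against 6.6% and 10.5% of all genes tested, with a median of 0.74. Groups did not overlap in air for 71 genes higher in Zhongshuang 9 (35.5%) and 6 lower, against 24.6% and 18.3%. In both treatments 19 genes were called higher, against 43 under submergence alone and 15 in air alone, which does not show that they differed between treatments. The counts under submergence and in air rested on single libraries more than the averaged one did. Under submergence the total of 64 calls was 32 without Avatar submergence replicate 3, 34 without Avatar submergence replicate 4 and 39 without Zhongshuang 9 submergence replicate 3, and 112 without the 5 libraries with shifted stretches. In air the total of 39 was 22 without Zhongshuang 9 air replicate 1 and 25 without Avatar air replicate 3. Without Zhongshuang 9 air replicate 1 the air counts were 15 higher and 7 lower, and the median was 0.38.

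**Figure D5:**
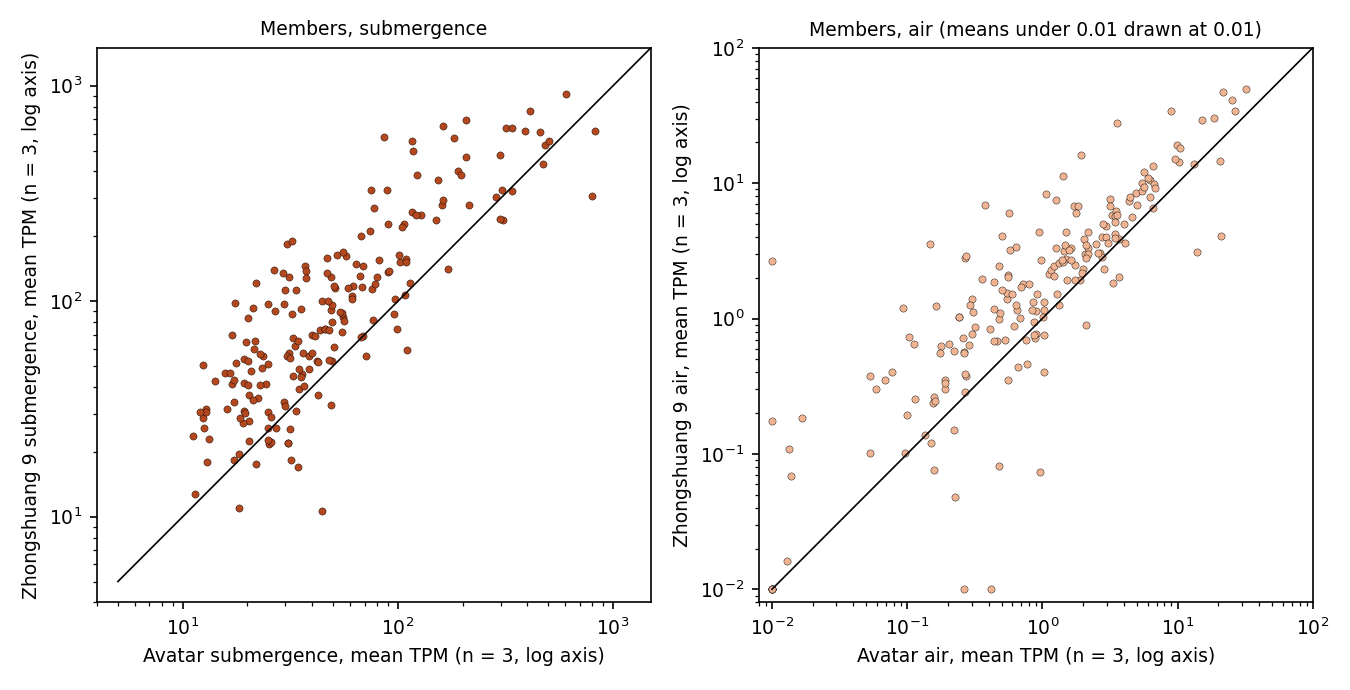
Mean TPM of each of the 200 genes in Zhongshuang 9 (y axis) against Avatar (x axis), on log axes, under submergence (left) and in air (right), with a line of equal levels. In the edgeR fit 174 genes under submergence and 165 in air had a positive log2 fold change of Zhongshuang 9 over Avatar.

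The 3 genes with the smallest p among those higher in Zhongshuang 9 lay above Avatar in every library of each treatment. BnaA02g04780D was at 41.3, 44.1 and 40.3 TPM in submerged Zhongshuang 9 against 21.2, 19.6 and 17.3 TPM in submerged Avatar, and at 0.969, 0.671 and 0.659 TPM in Zhongshuang 9 air against 0.308, 0.291 and 0.303 TPM in Avatar air (averaged log2 fold change 1.22 ± 0.10, SE, edgeR adjusted p = 6.45e-06). Its cultivar gap was thus of like size in both treatments, 1.11 under submergence and 1.34 in air. BnaC01g02910D was at 736, 614 and 597 TPM in submerged Zhongshuang 9 against 174, 173 and 137 TPM in submerged Avatar, and at 16.5, 12.1 and 11.5 TPM in Zhongshuang 9 air against 7.6, 5.84 and 6.40 TPM in Avatar air (1.49 ± 0.13, SE, edgeR adjusted p = 1.32e-05). BnaA01g01300D had the widest gap of the 3 in air, with 2.91, 2.36 and 3.47 TPM in Zhongshuang 9 against 0.257, 0.214 and 0.344 TPM in Avatar. Under submergence it was at 51.8, 34.2 and 41.5 TPM in Zhongshuang 9 against 18.3, 15.4 and 8.52 TPM in Avatar (2.45 ± 0.23, SE, edgeR adjusted p = 1.97e-05). The call of all 3 genes held in each of the 20 alternatives.

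Among the 6 genes lower in Zhongshuang 9, the 3 with the smallest p differed in size and in the treatment that showed the gap. BnaA02g08020D was at 9.43, 12.1 and 10.2 TPM in submerged Zhongshuang 9 against 51.6, 45.2 and 36.4 TPM in submerged Avatar, and in air at 0.222 TPM in replicate 3 of Zhongshuang 9 and 0 in the others, against 0.725, 0.784 and 1.36 TPM in Avatar (averaged log2 fold change -2.66 ± 0.37, SE, edgeR adjusted p = 0.000359). BnaC02g25950D differed mainly in air, with 6.45, 2.91 and 2.83 TPM in Zhongshuang 9 against 23.8, 18.8 and 20.7 TPM in Avatar. Under submergence it was at 284, 232 and 208 TPM in Zhongshuang 9 against 328, 284 and 281 TPM in Avatar, where the cultivars overlapped (averaged -1.36 ± 0.20, SE, edgeR adjusted p = 0.000533). BnaC05g06260D was at 61.1, 50.1 and 56.2 TPM in submerged Zhongshuang 9 against 69.2, 77.7 and 67.1 TPM in submerged Avatar, and at 2.4, 1.5 and 2.19 TPM in Zhongshuang 9 air against 3.59, 4.09 and 3.34 TPM in Avatar air (-0.62 ± 0.12, SE, edgeR adjusted p = 0.00253). The other 3 were BnaC04g49440D, BnaA09g03330D and BnaC09g18090D. None was above 0.161 TPM in a Zhongshuang 9 air library, and their submerged levels were 25 to 26.7, 22.7 to 30.4 and 15 to 19.1 TPM in Zhongshuang 9 against 29.9 to 32.8, 21.0 to 27.8 and 20.6 to 24.2 TPM in Avatar. In Avatar air their estimated counts were 6, 2.4 and 0, then 5.17, 5.22 and 6.37, then 5, 3 and 1. Under submergence their log2 fold changes were -0.26, 0.08 and -0.27 (edgeR adjusted p = 0.691, 0.839 and 0.573). Their averaged calls thus rest on few reads in air.

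Of the 6 leading genes, BnaA09g27350D (0.84 ± 0.22), BnaC05g21780D (0.35 ± 0.10) and BnaA02g20640D (2.52 ± 0.63) were called higher in Zhongshuang 9 on average over treatments (log2 fold change ± SE, edgeR adjusted p = 0.0164, 0.0252 and 0.0119). The call of BnaC05g21780D was lost in 7 of 20 alternatives, with an edgeR adjusted p of up to 0.132, and that of BnaA02g20640D in 1, with 0.0539. Estimated counts of these 3 called genes were not whole in 11 or 12 libraries, so their levels one by one are uncertain. BnaA05g09830D, BnaC06g05990D and BnaA03g57280D did not pass the threshold, with log2 fold changes of 0.48 ± 0.35, 0.99 ± 0.37 and -0.48 ± 0.23 (SE). Of the 4 genes highest under submergence, BnaA09g27350D was called as given above, and BnaC03g39190D was higher in Zhongshuang 9 by 0.76 ± 0.11 (SE, edgeR adjusted p = 0.000463). The others, BnaC03g30720D and BnaC03g18820D, did not pass, with 0.10 ± 0.27 and -1.77 ± 0.85 (SE, edgeR adjusted p = 0.823 and 0.141). BnaA03g19470D, one of the 2 highest in air, was higher in Zhongshuang 9 by 0.74 ± 0.22 (SE, edgeR adjusted p = 0.025). This call was lost in 2 of 20 alternatives, with an edgeR adjusted p of up to 0.0637. Of the neighbours, both genes of the C06 pair passed, with 1.81 ± 0.46 and 1.22 ± 0.23 (SE, edgeR adjusted p = 0.012 and 0.00255), and BnaC01g40890D passed with 1.00 ± 0.20 (edgeR adjusted p = 0.00302), and these 3 calls held in the 20 alternatives. BnaA03g38920D, BnaA09g06020D and BnaA09g06030D passed too, with 0.55 ± 0.17, 0.70 ± 0.23 and 1.49 ± 0.46 (SE, edgeR adjusted p = 0.0295, 0.041 and 0.0302). These calls were lost in 9, 10 and 6 of the 20 alternatives in that order. BnaA09g06030D had estimated counts of only 2, 8 and 3 in Zhongshuang 9 air and of 0, 1 and 0 in Avatar air. Its averaged log2 fold change fell to 0.0033 in the alternatives. Under submergence alone, BnaA09g06020D and BnaA09g06030D had log2 fold changes of 0.04 and -0.21 (edgeR adjusted p = 0.947 and 0.663). BnaA03g38880D and BnaC01g40880D did not pass, with 1.00 ± 0.40 and 1.04 ± 0.43 (SE).

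How far the genes were lifted in each cultivar depended on the scale. On log2(TPM + 1) the difference was larger in Zhongshuang 9 for 141 of the 200, with a median gap of 0.35. In the edgeR fit, which works on counts and adds a small prior count in place of this constant, it was larger in Zhongshuang 9 for 102, with median log2 fold changes of 5.17 in Zhongshuang 9 and 5.21 in Avatar. The widest gaps on log2(TPM + 1) were in BnaA09g10050D and BnaA03g38060D. BnaA09g10050D was at 195, 168 and 192 TPM in submerged Zhongshuang 9 and at 0.1 TPM or less in air, and at 41.0, 19.9 and 31.0 TPM in submerged Avatar and 0.138, 0.409 and 0.132 TPM in air. BnaA03g38060D was at 1090 TPM in replicate 1 of submerged Zhongshuang 9 and at 308 and 327 TPM in replicates 3 and 4, against 61.4, 72.2 and 124 TPM in submerged Avatar. In air it was at 4.30, 2.33 and 0.35 TPM in Zhongshuang 9 and 3.34, 0.488 and 4.78 TPM in Avatar. In the other direction, BnaCnng19630D was at 65.0, 53.9 and 59.1 TPM in submerged Zhongshuang 9 and 90.6, 155 and 86 TPM in submerged Avatar, and BnaC04g05730D at 29.1, 20.7 and 16.5 TPM in submerged Zhongshuang 9 and 38.3, 27.3 and 27 TPM in submerged Avatar. BnaA05g05870D, another of the 200, had the same fold changes as BnaC04g05730D in every edgeR contrast, such as 0.79 ± 0.46 (SE) averaged over treatments. These values cannot be assigned to either gene alone. Tested against each other, the responses of the cultivars gave calls for 4 of the 200 (2%), all larger in Zhongshuang 9, and 0 smaller, against 0.438% and 0.808% of all genes tested, and since the rule used both responses nothing is read from this count.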

How the data were processed

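The deposited files hold estimated counts and TPM for 101040 coding sequences in each of 12 libraries, with the columns that kallisto writes, per the file headers. Versions of kallisto, edgeR and limma are missing from the submitters' processing notes, which name these tools. No source used here gives the genome build, annotation or strand setting. Deposited length and effective length columns served only to describe coding length. Per the labels' protocols, libraries were made with dUTP marking of the second strand. The TPM values made by the authors chose the 200 genes. The members and all choices of what to describe were made with earlier results of these data known.

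Estimated counts from the authors' files were rounded and tested with edgeR 4.0.16 (R 4.3.3): filterByExpr left 55674 genes, TMM factors scaled libraries, and the quasi-likelihood F test was run with 4 group means over all 12 libraries and Benjamini-Hochberg adjustment over all genes tested (threshold 0.05). The contrasts were Zhongshuang 9 against Avatar averaged over treatments, under submergence and in air, submergence against air in each cultivar, and the difference between responses. Each standard error is the fold change divided by the root of F. On simulated counts for the averaged contrast over 54430 genes, the test recovered 51 of 100 genes changed 2-fold and 89 of 100 changed 4-fold, with 2 false calls. The simulation drew each count independently and changed only genes well above the count filter. It held no shifted stretches and no reads divided between copies, so it does not give the rate of false calls in the real libraries. Depth was 24389813 to 35873196 counts per library, and 3 counts were the limit that a count of 0 allows. No pair of replicates agreed within sampling noise: the lowest chi-square per sequence was 5.06. Same-numbered samples of different groups correlated in their deviations between -0.229 and 0.141, above 0.1 in 3 of 18 pairs, so numbers were not taken to pair samples.

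Named genes were the 6 with the largest smaller difference, the 4 highest under submergence, the 3 with the smallest p in each direction of the averaged contrast, the 2 with the largest gap between cultivar differences in each direction, the 2 highest in air, those at the edge of the list and the 4 leading pairs of neighbours. Other genes named were chosen after their values were seen. Identifiers were matched to the RefSeq table of Da-Ae (3347 of 101040, 3.31%), from which no coordinates are used because the files' build is not given. That table holds no product text, so no pathway terms were looked up. The local shift of a library was the median log2 deviation from the other libraries of its group over 20 expressed neighbours on each side, centred on the median of all expressed genes. Alternatives were RLE factors, library totals, DESeq2 1.42.0, limma 3.58.1 on log2 TPM, no filter, a replicate block, left-out libraries and other constants of the rule.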

Additional observations from a re-analysis of the deposited data

Results flagged for a closer look

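For 4 of the 200 genes the responses of the cultivars to submergence differed by the interaction term of the edgeR fit, all with the larger response in Zhongshuang 9. They were BnaA09g10050D (4.88 ± 0.82, log2 difference of responses ± SE, edgeR adjusted p = 0.0244), BnaC02g25950D (2.16 ± 0.40, adjusted p = 0.0356), BnaA09g49870D (1.34 ± 0.23, adjusted p = 0.0278) and BnaC05g41510D (1.95 ± 0.39, adjusted p = 0.0438), with BnaA09g49870D and BnaC05g41510D named after their values were seen. BnaA09g49870D was at 301, 196 and 186 TPM in submerged Zhongshuang 9 and 6.80, 6.18 and 6.78 TPM in air, and at 95.8, 88.7 and 85.3 TPM in submerged Avatar and 6.92, 6.86 and 5.97 TPM in air, so its cultivars were alike in air and apart under water. Its expressed neighbours had a median log2 shift of 0.97 in replicate 1 of submerged Zhongshuang 9 and of -0.53 in replicate 4. Whether this shift affected its levels was not tested. BnaC05g41510D was at 78.9, 58.7 and 56.1 TPM in submerged Zhongshuang 9 and 1.18, 0.582 and 0.505 TPM in air, and at 18.1, 18.5 and 22.3 TPM in submerged Avatar and 0.762, 0.965 and 0.866 TPM in air. The calls did not hold when single libraries were left out: of 12 such fits, BnaA09g10050D lost its call in 6, BnaC02g25950D in 9, BnaA09g49870D in 7 and BnaC05g41510D in 11, with edgeR adjusted p of up to 0.092, 0.0955, 0.0935 and 0.128 in the same order. Log2 differences over those fits ran from 4.21 to 5.88, 1.94 to 2.69, 1.11 to 1.47 and 1.74 to 2.42. Without the 5 libraries with shifted stretches, BnaA09g10050D was at 3.88 (edgeR adjusted p = 0.134), BnaC02g25950D at 2.15 (0.0792) and BnaC05g41510D at 1.42 (0.255), none of them called, and BnaA09g49870D was called at 1.28 (0.022). The rule used both responses, so these values are a description.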

How the results depend on the processing

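The excess of genes higher in Zhongshuang 9 on average over treatments (99 calls, 93 of them higher) was present under the 20 alternatives run, with 79 to 111 calls when single libraries were left out. Under submergence the total of 64 ranged from 32 to 79 with single libraries left out, was 101 with DESeq2 and 112 without the 5 libraries with shifted stretches. In air the total of 39 ranged from 22 to 47 with single libraries left out and was 63 with DESeq2, 23 with limma on log2(TPM + 1) and 22 with only the 6 libraries compared, a fit in which 146 of the 200 passed the filter. With the replicate number as a block the totals were 98, 61 and 35. The rule picked 185 to 194 of the same genes with single libraries left out, 194 without the cap, but 117 with log2(TPM + 0.1) and 140 with log2(TPM + 5). Among named genes, the averaged cultivar contrast changed sign in 3 genes, all uncalled in the edgeR fit of all libraries: BnaC03g30720D (-0.042 to 0.289 with single libraries left out) was at -0.0055 with limma on log2(TPM + 1), -0.042 without Zhongshuang 9 submergence replicate 3 and -0.00075 without Zhongshuang 9 air replicate 1. BnaA09g10050D (-0.34 to 0.49) was at -0.34 without Zhongshuang 9 air replicate 1, and limma called it higher at 1.19 on log2(TPM + 1) and 0.77 on log2(TPM + 0.1) (adjusted p = 0.000183 and 0.0448). BnaCnng19630D (-0.069 to 0.42) was at -0.13 with limma on log2(TPM + 1), -0.069 without Zhongshuang 9 air replicate 4 and -0.027 without the 5 libraries. The cause was not tested. Depth limits levels near 0 in air, where 9 to 22 of the 200 had no count in a library.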

Other observations

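Without the cap of 400 TPM, 6 more sequences would have been among the 200, and they include some of the strongest increases in the leaf. BnaCnng66800D was at 1240, 1287 and 1345 TPM in submerged Zhongshuang 9 and 21, 7.21 and 5.77 TPM in air, and at 1139, 882 and 772 TPM in submerged Avatar and 5.07, 1.36 and 6.64 TPM in air. BnaA03g15610D averaged 1536 ± 500 TPM in submerged Zhongshuang 9 and 16.2 ± 4.46 TPM in air, and 1475 ± 65.5 TPM in submerged Avatar and 14.1 ± 0.956 TPM in air (SD, n = 3 each). BnaA03g38940D, 20 gene numbers from BnaA03g38920D of the 200, averaged 1631 ± 267 TPM in submerged Zhongshuang 9 and 32.4 ± 10.6 TPM in air, and 1342 ± 209 TPM in submerged Avatar and 22.4 ± 11.3 TPM in air. BnaA07g32130D had the highest mean of them in a single group, 2556 ± 341 TPM in submerged Zhongshuang 9, against 806 ± 276 TPM in submerged Avatar, with 26 ± 6.74 TPM in Zhongshuang 9 air against 35.1 ± 15.9 TPM in Avatar air. The others were BnaA05g24100D and BnaC08g12910D. All 6 were named after their values were seen.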
